A study of Homo sapiens with 20 samples.

Results

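The genes described here make ribosomes: 60 named genes of ribosome biogenesis and RNA polymerase I (Pol I) transcription, of which 45 could be measured on their own. A member counts as measured where the platform's annotation gives a probe set with that gene as its only symbol, and where there are several, the probe set with the highest mean over the 20 arrays was used. Of the other 15, 10 share every probe set with another symbol (RRN3, NOP56, NOP58, DKC1, NOL11, TSR1, PPAN, GNL3L, GTPBP4 and NCL), and 5 are named on no probe set (WDR43, BOP1, DDX18, GNL3 and EBNA1BP2). The 45 stand among 14232 genes with a single-symbol probe set and 22011 probe sets in all. By role they comprise 5 of 6 Pol I transcription genes, 4 of 7 genes of small nucleolar ribonucleoproteins (snoRNPs) and rRNA modification, 20 of 23 small subunit processing genes, 13 of 20 large subunit assembly genes and 3 of 4 multifunctional nucleolar proteins.

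Total RNA was profiled on 20 exon arrays in 10 groups of 2 biological replicates. LP-1, a multiple myeloma line, and Raji, a Burkitt lymphoma line, each received 500 nM of a BET inhibitor, which displaces BET bromodomain proteins from acetylated chromatin, or 500 nM of the inactive enantiomer, its mirror-image form, for 4 or 8 h, and each line was also sampled untreated at 0 h. No allele or other agent is given in the labels, no vehicle was sampled at 4 or 8 h, and the compound is not named. Values are log2 expression levels from robust multi-array averaging (RMA), so each is relative to the rest of its array. With 2 arrays a group, precision is set by how few arrays there are. In these bulk samples fewer cells of a type and less RNA per cell cannot be told apart.

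All 7 plasma cell markers lay above the array median in LP-1 and all 7 measured B cell markers lay above it in Raji, while 0 of 6 T cell and 0 of 5 myeloid markers lay above it in either line. The line markers were not exclusive, as 2 of 7 B cell markers lay above the median in LP-1 and 4 of 7 plasma cell markers in Raji. Of 6 epithelial and fibroblast markers 1 lay above it in LP-1 and 2 in Raji, among them the keratin gene KRT8 in both lines. Replicate arrays correlated at r = 0.973 to 0.989 over all probe sets and at 0.957 to 0.998 over the 45 genes. Array medians lay between 5.13 and 5.39. Replicate 1 of LP-1 with BET inhibitor at 4 h stood apart in its upper range, with a 75th percentile of 6.80 where the other LP-1 arrays had 6.91 to 7.23. The calls of single members named for LP-1 at 4 h are also given without it. Calls of a member's second probe set and of genes outside the 45 are not. In Raji the lowest 75th percentile, 6.75, was that of replicate 1 with inactive enantiomer at 4 h, where the other Raji arrays had 6.85 to 7.04.

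Ribosome assembly begins in the nucleolus, where Pol I transcribes rDNA into a long precursor rRNA. SnoRNPs guide methylation and pseudouridylation of that precursor, the small subunit processome cleaves out and folds the 18S rRNA, and a separate set of factors assembles the large subunit around 28S, 5.8S and 5S rRNA. The genes for these factors are themselves transcribed by RNA polymerase II, are highly expressed in growing cells, and include many known targets of the transcription factor MYC.

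The median level of the members was lower with BET inhibitor than with inactive enantiomer in both lines, with the largest median fold change in LP-1 at 8 h. This median level was 7.33 and 7.59 on the LP-1 arrays with BET inhibitor at 4 h and 7.30 and 7.21 at 8 h, against 7.90 and 7.98 with inactive enantiomer at 4 h, 7.81 and 8.00 at 8 h, and 7.94 and 7.99 in untreated LP-1. In Raji it was 7.60 and 7.82 with BET inhibitor at 4 h and 7.57 and 7.59 at 8 h, against 7.74 and 7.92 with inactive enantiomer at 4 h, 8.14 and 7.93 at 8 h, and 7.90 and 7.95 in untreated Raji. All 4 inhibitor arrays of LP-1 lay below all 6 other LP-1 arrays, whereas the Raji arrays with BET inhibitor and with inactive enantiomer overlapped at 4 h and separated at 8 h.

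**Figure D1:**
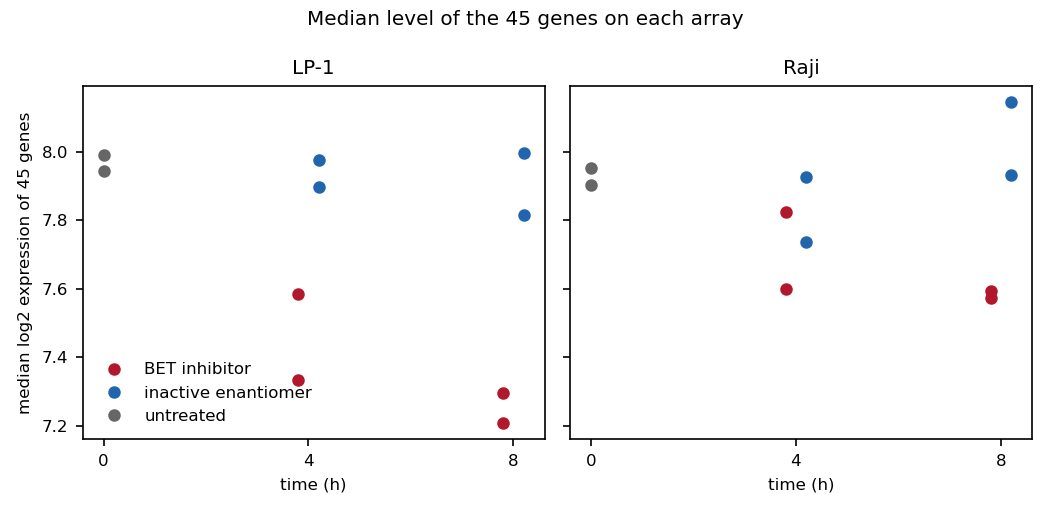
Median log2 expression of the 45 measured ribosome biogenesis genes on each array (points, 2 per group) against time in h, in LP-1 (left) and Raji (right), coloured by treatment. In LP-1 the inhibitor arrays sit between 7.21 and 7.59 and the others between 7.81 and 8.00.

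A gene is called lower or higher where limma's moderated test over all 20 arrays gave a Benjamini-Hochberg adjusted p under 0.05 across the 22011 probe sets. With BET inhibitor over inactive enantiomer, 6 of 45 members were called lower in LP-1 at 4 h, where 1.9% of all probe sets were, and 23 of 45 in LP-1 at 8 h, against 1.97%. In Raji 1 of 45 was called lower at 4 h, against 0.341% of all probe sets, and 4 of 45 at 8 h, against 1.05%. No member was called higher in any of the 4 comparisons. The members' median log2 fold change was -0.39 in LP-1 at 4 h, -0.52 in LP-1 at 8 h, -0.18 in Raji at 4 h and -0.36 in Raji at 8 h, where the median over all probe sets was -0.04, 0.06, 0.01 and near 0 (-0.000695) in the same order. Over the third of probe sets with the highest mean level these medians were -0.15, 0.06, 0.11 and 0.01.

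Beyond the calls, the single arrays were compared. Both inhibitor arrays lay below both inactive enantiomer arrays for 40 of 45 members in LP-1 at 4 h, 40 in LP-1 at 8 h, 18 in Raji at 4 h and 36 in Raji at 8 h, and over all probe sets this held for 26.4%, 16.3%, 20.2% and 20%. Estimates were negative in all 4 comparisons for 33 members, and 15 members had separated arrays in all 4: POLR1B, POLR1C, UBTF, TCOF1, RRP9, UTP4, UTP25, NOL6, NOP16, NIP7, WDR12, WDR74, MRTO4, NOL12 and DDX21. In all, 26 members were called lower in at least 1 comparison and 19 in none. The counts across the 4 comparisons were made for the members alone. No share over all probe sets stands beside them, so they are not read as particular to the members.

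**Figure D2:**
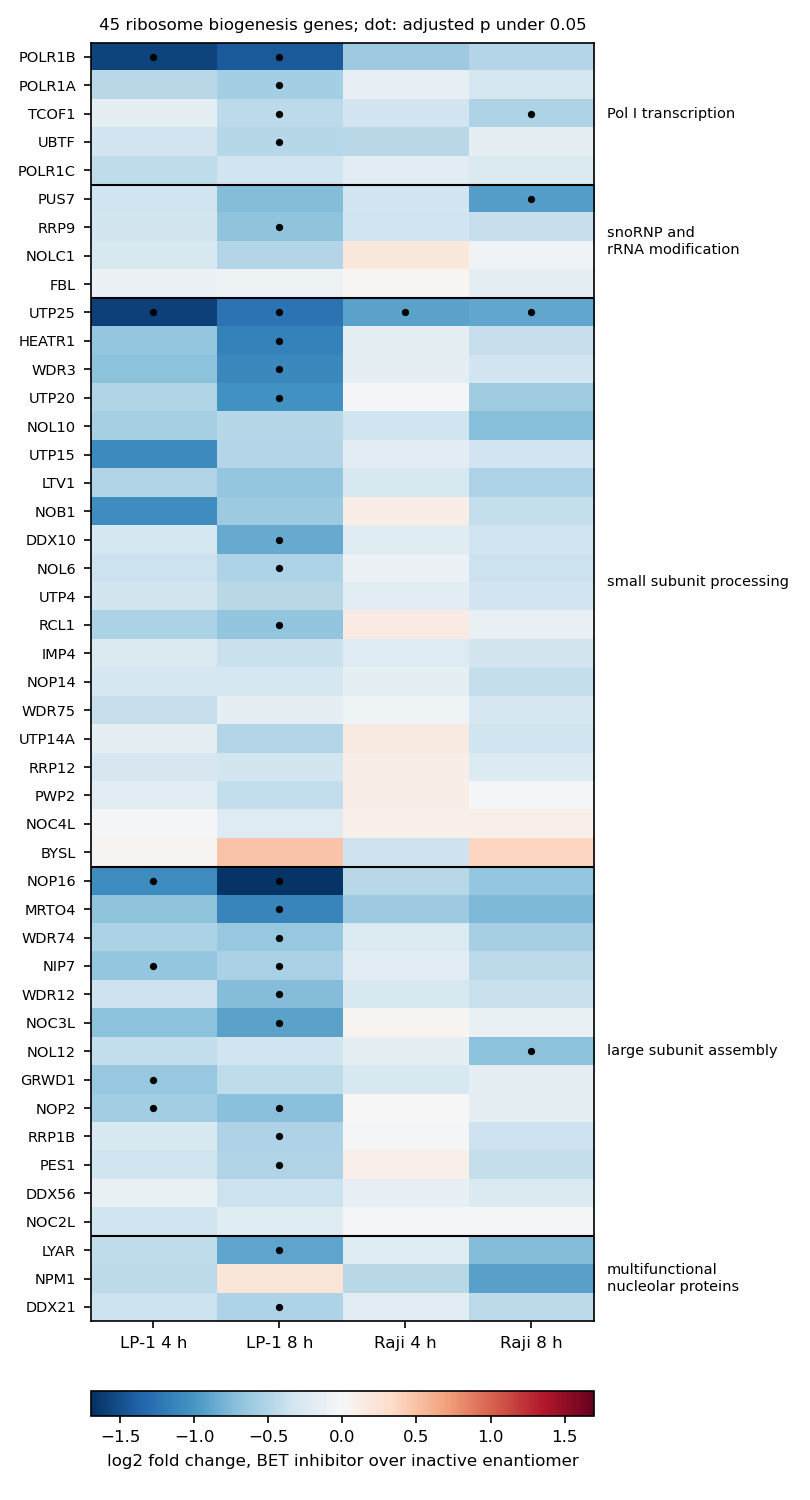
Heat map of the log2 fold change of BET inhibitor over inactive enantiomer for the 45 members (rows, grouped by role) in LP-1 and Raji at 4 and 8 h (columns), with a dot where the adjusted p is under 0.05. The LP-1 8 h column holds 23 dots, all on lower (blue) cells, and UTP25 is the one row dotted in every column.

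These promoters are printed because their genes were among the members called lower in the most comparisons, UTP25 in 4 and NOP16, NOP2 and NIP7 in 2 each. They are RefSeq sequences of build GRCh38.p14, 250 bases before to 50 after the annotated start, 5′ to 3′ on the gene's strand, with the hexamer CACGTG in capitals. UTP25 is at chr1:209827722-209828021 (+), NOP16 at chr5:176388549-176388848 (−), NOP2 at chr12:6568242-6568541 (−) and NIP7 at chr16:69339522-69339821 (+).
UTP25: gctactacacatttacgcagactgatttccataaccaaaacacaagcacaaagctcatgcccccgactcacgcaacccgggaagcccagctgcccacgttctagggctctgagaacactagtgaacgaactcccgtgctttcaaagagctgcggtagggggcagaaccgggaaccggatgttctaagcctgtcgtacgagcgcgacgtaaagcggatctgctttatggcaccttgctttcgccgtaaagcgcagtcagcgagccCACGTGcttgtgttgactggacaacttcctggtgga
NOP16: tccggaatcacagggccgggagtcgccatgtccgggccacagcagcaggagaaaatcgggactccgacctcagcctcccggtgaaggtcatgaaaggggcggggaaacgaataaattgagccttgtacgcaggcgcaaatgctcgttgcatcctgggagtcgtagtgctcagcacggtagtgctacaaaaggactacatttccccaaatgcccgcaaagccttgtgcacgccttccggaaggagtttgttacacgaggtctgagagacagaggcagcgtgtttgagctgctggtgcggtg
NOP2: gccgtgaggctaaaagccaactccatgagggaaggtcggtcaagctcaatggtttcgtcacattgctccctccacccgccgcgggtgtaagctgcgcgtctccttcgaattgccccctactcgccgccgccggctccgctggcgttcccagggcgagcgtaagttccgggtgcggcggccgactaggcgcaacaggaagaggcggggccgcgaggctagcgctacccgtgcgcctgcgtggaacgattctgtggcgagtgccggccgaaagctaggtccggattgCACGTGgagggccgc
NIP7: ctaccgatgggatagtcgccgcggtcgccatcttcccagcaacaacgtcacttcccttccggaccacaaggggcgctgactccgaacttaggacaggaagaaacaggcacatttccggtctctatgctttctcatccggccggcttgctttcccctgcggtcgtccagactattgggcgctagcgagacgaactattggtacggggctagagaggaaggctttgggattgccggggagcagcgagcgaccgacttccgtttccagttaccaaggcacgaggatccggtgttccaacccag
CACGTG is the canonical E-box, the letters bound by MYC with MAX and by several other factors. Its first base lies 14 bases after the start in the UTP25 promoter and 35 bases after it in the NOP2 promoter, and the NOP16 and NIP7 windows do not hold these letters.

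CACGTG, which reads the same on both strands, was found in a promoter of 20 of the 40 measured members with an entry in the promoter table (50.0%). Among all 11385 genes with a single-symbol probe set and an entry it was found in 11.3%, and among all 27305 genes of the table in 8.77%. The related letters CACGCG, or CGCGTG on the other strand, counted apart from CACGTG and with overlapping matches allowed, were found for 14 of 40 members (35.0%), against 19.3% of the genes with a single-symbol probe set. Members called lower in LP-1 at 8 h held CACGTG in 11 of 21 cases (52.4%), and members not passing held it in 9 of 19 (47.4%). These shares describe letters in a window of the same length for every gene, and no test was run on them.

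Of the Pol I transcription genes, POLR1B, the second-largest Pol I subunit, showed the largest fall. Its level was 4.30 and 5.47 with BET inhibitor and 6.39 and 6.52 with inactive enantiomer in LP-1 at 4 h, and 4.73 and 5.10 with BET inhibitor and 6.21 and 6.48 with inactive enantiomer in LP-1 at 8 h, where untreated LP-1 had 6.55 and 6.81. All 4 inhibitor arrays were below every other LP-1 array, and replicate 1 at 4 h was the lowest. The log2 fold change was -1.57 ± 0.32 (SE) at 4 h (adjusted p = 0.022) and -1.43 ± 0.32 at 8 h (adjusted p = 0.0201), a level 2.69-fold lower at 8 h. Without the replicate 1 inhibitor array the 4 h estimate was -0.99 and did not pass (adjusted p = 0.147), without replicate 2 it was -2.16, and each of the calls at 4 and 8 h held in 1 of 4 fits without 1 array. In Raji POLR1B had 6.43 and 6.89 with BET inhibitor and 6.98 and 7.58 with inactive enantiomer at 4 h, and 6.90 and 6.98 with BET inhibitor and 7.57 and 7.31 with inactive enantiomer at 8 h. The Raji arrays did not overlap at either time, but neither difference passed the test (-0.62 ± 0.32, adjusted p = 0.417, and -0.50 ± 0.32, adjusted p = 0.591).

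POLR1A, the largest Pol I subunit, and UBTF, which binds rDNA and bends it for transcription, fell in LP-1 at 8 h. POLR1A had 6.72 and 6.88 with BET inhibitor against 7.28 and 7.47 with inactive enantiomer, a log2 fold change of -0.58 ± 0.14 (adjusted p = 0.028). Without 1 array the POLR1A estimate ran from -0.67 to -0.48, and its call was not kept. UBTF had 7.84 and 7.47 with BET inhibitor against 8.13 and 8.14 with inactive enantiomer, -0.48 ± 0.13 (adjusted p = 0.0472). Neither passed in LP-1 at 4 h (-0.47 for POLR1A and -0.32 for UBTF) or in Raji, where POLR1A was at -0.14 and -0.28 and UBTF at -0.48 and -0.15 at 4 and 8 h. With the replicate number as a block the UBTF call in LP-1 at 8 h was lost (adjusted p = 0.0645). POLR1C, a subunit shared by Pol I and Pol III, did not pass in any comparison, with log2 fold changes of -0.44 and -0.34 in LP-1 and -0.19 and -0.25 in Raji at 4 and 8 h, though after quantile normalization it passed in LP-1 at 8 h (-0.40, adjusted p = 0.0205).

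TCOF1, which encodes treacle, the nucleolar protein that links Pol I transcription to pre-rRNA processing, fell at 8 h in both lines. Its level in LP-1 at 8 h was 6.60 and 6.69 with BET inhibitor and 7.14 and 7.04 with inactive enantiomer, and in Raji at 8 h 6.89 and 6.79 with BET inhibitor and 7.44 and 7.27 with inactive enantiomer. The groups did not overlap in either line, and the log2 fold changes were -0.44 ± 0.10 in LP-1 (adjusted p = 0.0263) and -0.52 ± 0.10 in Raji (adjusted p = 0.024). At 4 h TCOF1 was at -0.16 ± 0.10 in LP-1 and -0.32 ± 0.10 in Raji, and neither passed (adjusted p = 0.553 and 0.161). Each 8 h call was lost in all 4 fits that left out 1 array of the pair of groups, with estimates of -0.49 to -0.39 in LP-1 and -0.61 to -0.44 in Raji.

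**Figure D3:**
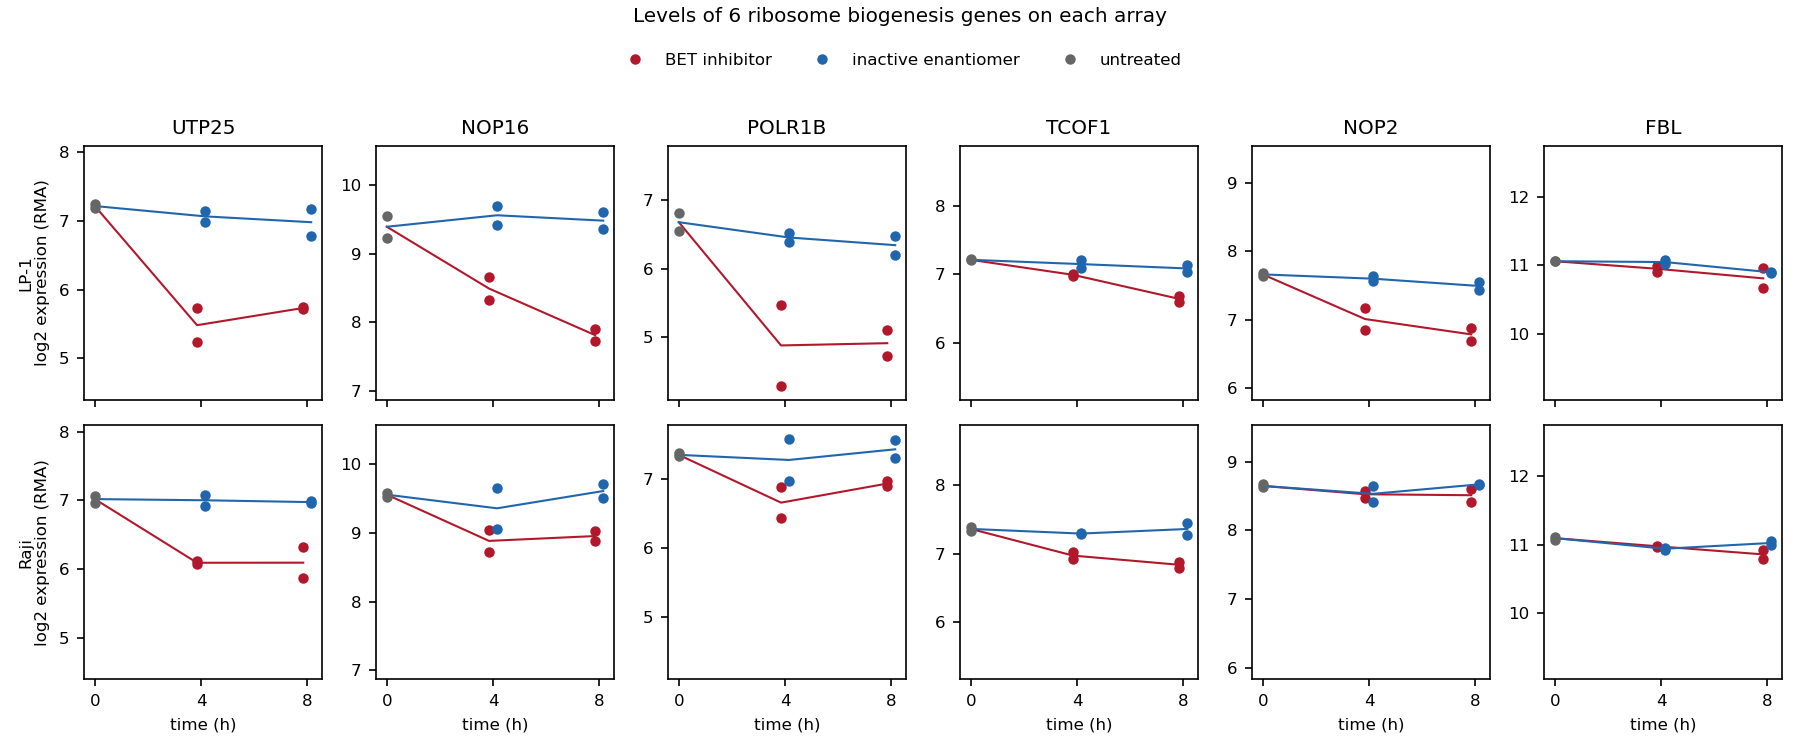
Log2 expression of the genes UTP25, NOP16, POLR1B, TCOF1, NOP2 and FBL on each array (points) with group means (lines) against time in h, in LP-1 (top) and Raji (bottom), each panel spanning the same number of log2 units. The inhibitor arrays of UTP25 lie below the others in both lines, those of NOP2 lie below the others in LP-1, and FBL lies near 11 throughout.

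Small subunit processing genes were called lower in 1 of 20 cases in LP-1 at 4 h, 7 in LP-1 at 8 h, 1 in Raji at 4 h and 1 in Raji at 8 h, with medians of -0.37, -0.50, -0.15 and -0.33. Of all probe sets 1.9%, 1.97%, 0.341% and 1.05% were called lower in the same order. The counts of 1 are not read as particular to this role. UTP25, a nucleolar component of the small subunit processome, was the member called in all 4. Its level in LP-1 was 5.24 and 5.73 with BET inhibitor against 6.99 and 7.14 with inactive enantiomer at 4 h, 5.71 and 5.75 with BET inhibitor against 6.79 and 7.18 with inactive enantiomer at 8 h, and 7.19 and 7.25 in untreated cells. In Raji it was 6.07 and 6.11 with BET inhibitor against 6.92 and 7.08 with inactive enantiomer at 4 h, 5.86 and 6.32 with BET inhibitor against 6.99 and 6.96 with inactive enantiomer at 8 h, and 6.97 and 7.07 in untreated cells. In both lines every inhibitor array was below every other array. In LP-1 the log2 fold change was -1.59 ± 0.18 at 4 h (adjusted p = 0.0011) and -1.25 ± 0.18 at 8 h (adjusted p = 0.0023). In Raji it was -0.91 ± 0.18 at 4 h (adjusted p = 0.0295) and -0.88 ± 0.18 at 8 h (adjusted p = 0.0311). The LP-1 calls held in all 4 fits without 1 array, while the Raji call held in 0 of 4 at 4 h (estimates -0.99 to -0.83) and in 1 of 4 at 8 h (-1.11 to -0.65).

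WDR3, HEATR1 and UTP20, components of the small subunit processome, fell in LP-1 at 8 h. WDR3 had 7.21 and 7.28 with BET inhibitor against 8.29 and 8.39 with inactive enantiomer (-1.09 ± 0.18, adjusted p = 0.00512), and this call held in all 4 fits without 1 array. HEATR1, whose yeast relative Utp10 also acts in pre-rRNA transcription, had 7.75 and 7.61 with BET inhibitor against 8.87 and 8.79 with inactive enantiomer (-1.15 ± 0.23, adjusted p = 0.0112). Without 1 array the HEATR1 estimate ran from -1.22 to -1.08, and its call was not kept. The groups were separated by more than either group's range in both genes. UTP20 had 6.73 and 6.45 with BET inhibitor against 7.56 and 7.68 with inactive enantiomer (-1.03 ± 0.20, adjusted p = 0.00992). In Raji at 8 h the same genes were at -0.33 for WDR3, -0.40 for HEATR1 and -0.60 for UTP20, none of them called. HEATR1 is the one member with a second probe set, and this one was also called in LP-1 at 4 h (-0.77, adjusted p = 0.0352), where the probe set used here was not (-0.66, adjusted p = 0.181). Both probe sets were called lower in LP-1 at 8 h. The 4 h call of the second probe set is not given without the replicate 1 inhibitor array.

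The other small subunit genes called lower in LP-1 at 8 h were the RNA helicase DDX10 at -0.86, RCL1, whose yeast relative is needed for pre-rRNA cleavage, at -0.67, and NOL6, a processome protein, at -0.52. The 13 others did not pass. UTP15, a processome subunit, and NOB1, the endonuclease that cuts the 3′ end of 18S rRNA, had estimates of -1.09 and -1.05 in LP-1 at 4 h but did not pass (adjusted p = 0.0753 and 0.112), with inhibitor arrays that differed widely: UTP15 had 6.86 and 7.77, and NOB1 5.76 and 6.99, in replicates 1 and 2. BYSL, a factor in 40S maturation, had positive estimates at 8 h in both lines, 0.48 in LP-1 and 0.37 in Raji, neither called. Its LP-1 levels at 4 h were 5.88 and 3.86 with BET inhibitor, a wider spread than between any of its group means, so its 95% interval in LP-1 at 8 h ran from -0.51 to 1.47.

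Large subunit assembly genes were called lower in 4 of 13 cases in LP-1 at 4 h, 9 in LP-1 at 8 h, 0 in Raji at 4 h and 1 in Raji at 8 h, with medians of -0.54, -0.56, -0.16 and -0.38. Called lower in the same order were 1.9%, 1.97%, 0.341% and 1.05% of all probe sets. The Raji counts of 0 and 1 are not read as particular to this role. NOP16, a nucleolar protein of early pre-60S particles, showed the largest fall of any member in LP-1 at 8 h. Its LP-1 levels were 8.32 and 8.67 with BET inhibitor against 9.42 and 9.70 with inactive enantiomer at 4 h, 7.73 and 7.90 with BET inhibitor against 9.36 and 9.61 with inactive enantiomer at 8 h, and 9.23 and 9.55 in untreated cells. The inhibitor arrays were below all others at 4 h and lower again at 8 h. The log2 fold change was -1.07 ± 0.21 at 4 h (adjusted p = 0.0193) and -1.67 ± 0.21 at 8 h (adjusted p = 0.00079), a level 3.18-fold lower, and the 8 h call held in all 4 fits without 1 array. In Raji NOP16 was at -0.47 at 4 h and -0.66 at 8 h, with 9.03 and 8.88 with BET inhibitor against 9.72 and 9.51 with inactive enantiomer at 8 h. These Raji arrays did not overlap, and neither difference was called.

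NOP2, the methyltransferase that modifies a cytosine of 28S rRNA, and NIP7, which acts in pre-rRNA processing, fell in LP-1 at both times. NOP2 had 6.85 and 7.17 with BET inhibitor against 7.63 and 7.57 with inactive enantiomer at 4 h (-0.59 ± 0.13, adjusted p = 0.0404), and 6.89 and 6.69 with BET inhibitor against 7.55 and 7.44 with inactive enantiomer at 8 h (-0.71 ± 0.13, adjusted p = 0.00967). In Raji, where its level was higher, NOP2 had 8.48 and 8.58 with BET inhibitor against 8.41 and 8.65 with inactive enantiomer at 4 h, and 8.42 and 8.61 with BET inhibitor against 8.66 and 8.68 with inactive enantiomer at 8 h. The Raji arrays overlapped at 4 h and lay close at 8 h, and the estimates of -0.01 and -0.16 were not called. NIP7 in LP-1 had 9.58 and 9.71 with BET inhibitor against 10.38 and 10.22 with inactive enantiomer at 4 h (-0.66 ± 0.13, adjusted p = 0.0189), and its estimate of -0.56 at 8 h was also called. GRWD1, a chaperone of ribosomal protein RPL3, was called at 4 h alone in LP-1 (-0.65 ± 0.14, adjusted p = 0.033, against -0.43 at 8 h, not called). In LP-1 at 4 h the calls of NOP2 and GRWD1 were lost after quantile normalization (adjusted p = 0.148 and 0.0685).

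MRTO4, a placeholder for the stalk protein P0 on pre-60S particles, had 7.30 and 7.46 with BET inhibitor against 8.37 and 8.63 with inactive enantiomer in LP-1 at 8 h (-1.12 ± 0.22, adjusted p = 0.0114), a level 2.18-fold lower. In Raji at 8 h it had 8.56 and 8.65 with BET inhibitor against 9.15 and 9.59 with inactive enantiomer, and the difference of -0.76 was not called (adjusted p = 0.122) though the arrays were well apart. WDR12 and PES1, partners in the complex named PeBoW, were both called lower in LP-1 at 8 h, at -0.74 ± 0.15 for WDR12 (adjusted p = 0.0118) and -0.51 for PES1. The remaining large subunit genes called there were NOC3L at -0.91, WDR74 at -0.64 and RRP1B at -0.52. NOL12, a nucleolar RNA-binding protein, was called in Raji at 8 h, with 7.22 and 7.32 with BET inhibitor against 7.98 and 7.95 with inactive enantiomer (-0.70 ± 0.15, adjusted p = 0.0311). In LP-1 at 8 h NOL12 had 7.55 and 7.11 with BET inhibitor against 7.60 and 7.72 with inactive enantiomer, groups that nearly touched, and its estimate of -0.33 was not called.

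Among the snoRNP and rRNA modification genes, FBL, the methyltransferase of box C/D snoRNPs, did not pass in any comparison of inhibitor and enantiomer. It had 10.96 and 10.66 with BET inhibitor against 10.89 and 10.91 with inactive enantiomer in LP-1 at 8 h, and 10.79 and 10.92 with BET inhibitor against 11.05 and 10.99 with inactive enantiomer in Raji at 8 h. The arrays overlapped in LP-1, and the 95% intervals of the log2 fold change ran from -0.33 to 0.15 in LP-1 and from -0.40 to 0.07 in Raji, so a larger fall than the lower bound lies outside each interval. RRP9, a protein of the U3 snoRNP, was the one of 4 called lower in LP-1 at 8 h, at -0.68, where 1.97% of all probe sets were. PUS7, a pseudouridine synthase better known for tRNA and mRNA targets, was called in Raji at 8 h, with 7.48 and 7.33 with BET inhibitor against 8.57 and 8.11 with inactive enantiomer (-0.94 ± 0.21, adjusted p = 0.043). In LP-1 at 8 h PUS7 had 7.0 and 7.15 with BET inhibitor against 7.77 and 7.86 with inactive enantiomer, also separated, but did not pass. NOLC1, a chaperone of snoRNPs, did not pass in any comparison of inhibitor and enantiomer. It was at -0.49 in LP-1 and -0.06 in Raji at 8 h. With BET inhibitor over untreated cells it was called lower in LP-1 at 8 h (-0.57, adjusted p = 0.0261). With the replicate number as a block the Raji calls of NOL12 and PUS7 were lost (adjusted p = 0.053 and 0.0523).

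Of the multifunctional nucleolar proteins, LYAR, a nucleolar protein of proliferating cells, and the RNA helicase DDX21 were called lower in LP-1 at 8 h, at -0.90 and -0.53. LYAR had 7.55 and 7.83 with BET inhibitor against 8.61 and 8.57 with inactive enantiomer in LP-1 at 8 h, and 8.24 and 8.19 with BET inhibitor against 9.20 and 8.69 with inactive enantiomer in Raji at 8 h, where -0.73 was not called (adjusted p = 0.063). The arrays were separated in both lines. NPM1, which encodes the abundant nucleolar protein nucleophosmin, had a mean level of 2.04 on its single-symbol probe set, and was the one member among the third of probe sets with the lowest mean. Its values gave 95% intervals as wide as -0.95 to 1.37 in LP-1 at 8 h, so no change of NPM1 could be read from this probe set.

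**Figure D4:**
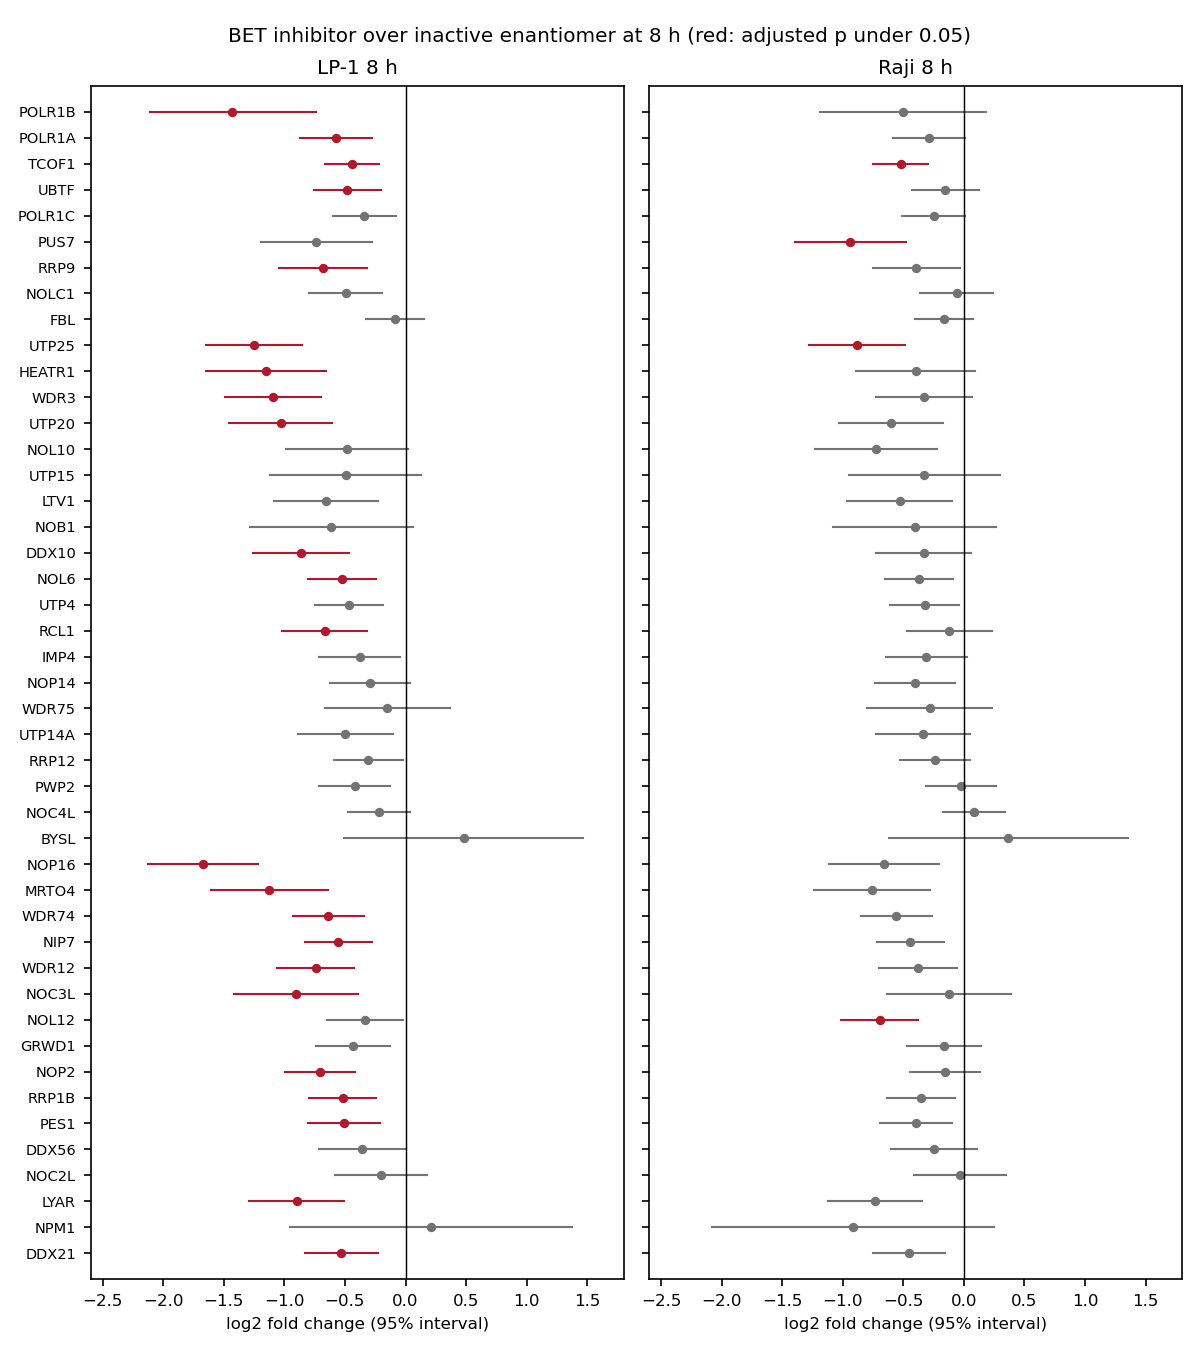
Log2 fold change of BET inhibitor over inactive enantiomer at 8 h with its 95% interval for each of the 45 members in LP-1 (left) and Raji (right), in red where the adjusted p is under 0.05. In LP-1 23 members are red and in Raji 4, and the intervals of BYSL and NPM1 are the widest.

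The number of calls depended on the arrays and on the estimate of spread. In LP-1 the count at 4 h was 1 of 45 without the replicate 1 inhibitor array that stood apart (UTP25 at -1.34, with POLR1B at -0.99, NOP16 at -0.89, NIP7 at -0.59, GRWD1 at -0.57 and NOP2 at -0.43 not passing), 14 without replicate 2, and 1 without either inactive enantiomer array, and at 8 h it was 12 and 7 without inhibitor replicate 1 or 2 and 6 and 4 without inactive enantiomer replicate 1 or 2. In Raji no call held in every fit without 1 array. At 4 h the UTP25 estimate ran from -0.99 to -0.83 in these fits, and the members' median was -0.29 without inactive enantiomer replicate 1. At 8 h the estimates ran from -0.61 to -0.44 for TCOF1 and from -1.11 to -0.65 for UTP25. Those of NOL12 ran from -0.74 to -0.65 and those of PUS7 from -1.17 to -0.71. With the spread estimated from the arrays of the line alone, 1, 3, 0 and 0 members passed in LP-1 at 4 h, LP-1 at 8 h, Raji at 4 h and Raji at 8 h. All called members were lower in each of these fits. Their counts are not set beside the share of all probe sets called in the same fits, which rest on fewer arrays.

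The calls overlapped in part between times and lines. The comparisons share no array, but each gene's spread was pooled over all groups and its SE was the same in each comparison. The calls are therefore not independent of each other, and their overlap is not read as independent agreement. In LP-1, 5 members were called at both times (NIP7, NOP16, NOP2, POLR1B and UTP25), 83.3% of the 4 h calls and 21.7% of the 8 h calls. At 8 h UTP25 and TCOF1 were called in both lines, 8.70% of the LP-1 calls and 50.0% of the Raji calls. The same overlaps were not counted over all called probe sets, so these percentages are not read as particular to the members. Across the 45 members the log2 fold changes in LP-1 and Raji correlated at r = 0.499 at 4 h and 0.445 at 8 h, and those at 4 and 8 h correlated at 0.681 in LP-1 and 0.542 in Raji. Over all 14232 genes the same correlations were 0.106, 0.394, 0.376 and 0.467. These describe genes measured on shared arrays, which are not independent of each other.

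A direct test of the difference between lines called 0 of 45 members at 4 h, where 0.114% of all probe sets were called, and 0 of 45 at 8 h, against 0.245%. In limma at an unadjusted p under 0.05, 9 of 45 members passed at 4 h, against 15.2% of all probe sets, and 7 of 45 at 8 h, against 9.04%. The smallest adjusted p was that of NOP2 at 4 h, where the Raji response minus the LP-1 response was 0.58 ± 0.19 (95% interval 0.17 to 0.99, adjusted p = 0.193), and of NOP16 at 8 h, at 1.01 ± 0.30 (0.37 to 1.66, adjusted p = 0.253). WDR3 was at 0.76 (0.20 to 1.32) at 8 h. All of these are positive, the fall being smaller in Raji, but a larger fall of the members in LP-1 than in Raji was not established by this test. The members' median difference was 0.26 at 4 h and 0.17 at 8 h, and at 4 h it was 0.01 after quantile normalization.

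The tests of the difference between times called 0 of 45 members in LP-1 and 0 of 45 in Raji, and 0% of all probe sets in each. At an unadjusted p under 0.05 limma passed 1 of 45 members in LP-1, DDX10, against 13.2% of all probe sets, and 2 of 45 in Raji, NOL12 and PES1, against 5.71%.

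The inactive enantiomer left the members without a call against untreated cells. It called 0 of 45 members in LP-1 at 4 h, where 0.0136% of all probe sets were called, 0 of 45 in LP-1 at 8 h, against 0.504%, and 0 of 45 in Raji at 4 and at 8 h, against 0% each time. At an unadjusted p under 0.05 limma passed 0, 2, 4 and 0 of 45 members in the same order, against 4.95%, 15.1%, 7.91% and 4.52% of all probe sets. The members' median log2 fold changes were -0.07 and -0.13 in LP-1 and -0.10 and 0.04 in Raji at 4 and 8 h.

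Against untreated cells, which differ from treated cells in time as well as compound, BET inhibitor gave more calls in LP-1. Called lower were 14 of 45 members in LP-1 at 4 h, against 6% of all probe sets, and 30 of 45 at 8 h, against 5.68%. In Raji 2 of 45 were called at 4 h, against 0.595%, and 4 of 45 at 8 h, against 1.22%. The counts given below for alternative fits have no such share beside them and are not read as particular to the members. The largest falls in LP-1 at 4 h were those of POLR1B (-1.80 ± 0.32), UTP25 (-1.74 ± 0.18), NOB1 (-1.26 ± 0.31) and UTP15 (-1.12 ± 0.29), with adjusted p of 0.00627, 0.00039, 0.0311 and 0.0351. At 8 h they were those of POLR1B (-1.76 ± 0.32), NOP16 (-1.58 ± 0.21), UTP25 (-1.49 ± 0.18) and NOC3L (-1.40 ± 0.24), with adjusted p of 0.00467, 0.000748, 0.000459 and 0.00332. NOC3L, whose yeast relative acts in pre-60S transport, had 6.27 and 6.33 with BET inhibitor at 8 h against 7.70 and 7.69 in untreated LP-1, while inactive enantiomer at 8 h gave 7.30 and 7.11, between them. Without inhibitor replicate 1 the 4 h estimates were -1.21 for POLR1B, -0.64 for NOB1 and -0.67 for UTP15, none of them passing (adjusted p = 0.0537, 0.232 and 0.297), while UTP25 passed. In the 4 fits without 1 array POLR1B passed in 2, NOB1 and UTP15 in 1 each and UTP25 in 4. The 4 h count was 2 without inhibitor replicate 1, 18 without replicate 2 and 2 without either untreated array, and 6 after quantile normalization or 7 after centring each array on its median. The 8 h count was 13 without inhibitor replicate 2 and 11 to 12 without an untreated array.

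In Raji against untreated cells, WDR74, a large subunit factor, passed at both times along with UTP25. WDR74 had 7.30 and 7.24 with BET inhibitor at 4 h, 7.25 and 7.25 at 8 h, against 7.32 and 7.67 with inactive enantiomer at 4 h, 7.66 and 7.96 at 8 h, and 7.89 and 7.95 in untreated Raji. Every inhibitor array was below both untreated arrays, the enantiomer arrays lay between them at 4 h, and the log2 fold changes were -0.65 ± 0.14 at 4 h (adjusted p = 0.0386) and -0.67 ± 0.14 at 8 h (adjusted p = 0.0253). Inactive enantiomer over untreated was at -0.42 at 4 h (adjusted p = 0.496), and BET inhibitor over inactive enantiomer at -0.23 at 4 h and -0.56 at 8 h, neither called (adjusted p = 0.512 and 0.0599). UTP25 was at -0.93 ± 0.18 at each time (adjusted p = 0.0312 and 0.0222), and at 8 h NOL12 (-0.62 ± 0.15, adjusted p = 0.0479) and TCOF1 (-0.52 ± 0.10, adjusted p = 0.0221) also passed. All the 4 h calls were lost without any 1 of the 4 arrays, and at 8 h 0 to 1 remained past the threshold, 0 without inhibitor replicate 1 or either untreated array and 1 without inhibitor replicate 2.

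Untreated Raji and untreated LP-1 differed in 10 members, 5 higher and 5 lower in Raji, where 6.79% of all probe sets were higher and 17.5% lower. That split was 9 higher and 3 lower after quantile normalization and 7 higher and 3 lower after median centring. Shares of all probe sets called in the alternative fits are not given, so changed counts are not read as particular to the members. IMP4, a protein of the U3 snoRNP, had 10.41 and 10.53 in untreated Raji against 9.08 and 9.11 in untreated LP-1 (1.37 ± 0.15, adjusted p = 1.8e-05), a level 2.59-fold higher. NOP2 had 8.67 and 8.63 in Raji against 7.64 and 7.68 in LP-1 (0.99 ± 0.13, adjusted p = 9.8e-05), and HEATR1 9.58 and 9.67 in Raji against 8.81 and 8.79 in LP-1 (0.82 ± 0.23, adjusted p = 0.0167). WDR3 had 7.72 and 7.74 in Raji against 8.54 and 8.67 in LP-1 (-0.87 ± 0.18, adjusted p = 0.00287). In each of these genes the arrays of the lines were far apart relative to their replicates. Without 1 array the HEATR1 estimate ran from 0.77 to 0.87, and its call was not kept. The other members higher in Raji were MRTO4 at 0.69 and POLR1A at 0.64, and the others lower were WDR12 at -0.73, NOLC1 at -0.63, UTP14A at -0.57 and DDX10 at -0.54. The count was 6 without any 1 of the 4 untreated arrays, and the members' median difference of -0.03 became 0.19 after quantile normalization and 0.11 after median centring.

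Of 107 further genes of the pathway, listed by role, 85 were measured. With BET inhibitor over inactive enantiomer 9 of 85 were called lower in LP-1 at 4 h, against 1.9% of all probe sets, and 14 at 8 h, against 1.97%. The LP-1 4 h calls are not given without the replicate 1 inhibitor array that stood apart. In Raji 0 of 85 were called lower at either time, near the shares of 0.341% at 4 h and 1.05% at 8 h. The medians of the 85 genes were -0.43, -0.28, -0.03 and -0.19 in LP-1 at 4 h, LP-1 at 8 h, Raji at 4 h and Raji at 8 h. Those with the smallest p at 4 h in LP-1 were URB2 at -0.81, DDX31 at -0.79 and EMG1, an 18S rRNA methyltransferase, at -0.79. At 8 h they were NAT10, the RNA cytidine acetyltransferase that modifies 18S rRNA, at -0.80, DDX31 at -0.78 and PAK1IP1 at -1.01. The exosome and exonuclease genes that trim pre-rRNA were called lower in LP-1 in 0 of 12 cases at 4 h, near the 1.9% of all probe sets. At 8 h they were called lower in 2 of 12 cases, against 1.97%. Limma passed 1 gene as higher, RRP8 in Raji at 4 h, a call that is not given without any 1 array. Of the 107 genes, 91 had a promoter entry, and 25 of these (27.5%) held CACGTG.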

How the data were processed

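The deposited values are log2 expression levels per transcript-level probe set, made by the authors from exon arrays with RMA in Affymetrix Expression Console on build hg19, per the submitters' processing notes (versions not given in the sources used here). RMA corrects background and quantile-normalizes probes before summarising them, which removes differences in total RNA between samples. Values were used as deposited, without a filter on dim probe sets. Arrays carry no read depth, so precision is limited by their number.

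Symbols came from the platform's annotation. All 20 arrays entered 1 limma model with a mean for every group (limma 3.58.1, R 4.3.3, 10 residual degrees of freedom, prior degrees of freedom 2.59). The 17 comparisons used two-sided tests, p adjusted by Benjamini-Hochberg across the 22011 probe sets, and a threshold of 0.05. The script was tested on simulated data. The p-values measure the spread between replicates that the labels call biological, pooled over all groups. The members and gene lists were chosen with earlier results of these data known, so no p is given for a list. Members may each be named; full statistics follow a rule: Pol I genes and the 8 called members with the smallest p per comparison of inhibitor and enantiomer, and the 4 largest calls of the other comparisons. Promoters were searched on both strands. Same-numbered replicates deviated together at r = -0.0346 to 0.121 in LP-1 and -0.16 to 0.0507 in Raji, so numbers were not used as pairs. Alternatives were leaving out the 7337 dimmest probe sets, quantile normalization, median centring, an intensity trend, a replicate block, each line alone, and each array in turn.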

Additional observations from a re-analysis of the deposited data

Results flagged for a closer look

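RRP8, a nucleolar rRNA methyltransferase outside the 45 genes, passed a direct test of the difference between lines at 4 h with all arrays. Its level in Raji at 4 h was 6.21 ± 0.05 with BET inhibitor and 5.46 ± 0.31 with inactive enantiomer, and in LP-1 at 4 h 5.98 with BET inhibitor and 6.41 with inactive enantiomer (means, SD where given, n = 2 each). The log2 fold change was 0.76 ± 0.13 in Raji (SE, limma adjusted p = 0.0149) and -0.43 in LP-1 (adjusted p = 0.136), and the Raji response minus the LP-1 response was 1.19 ± 0.19 (adjusted p = 0.0392). Groups of 2 are too small for a test of single arrays as outliers. The difference includes replicate 1 of LP-1 with BET inhibitor at 4 h, which stood apart in its upper range. It also includes replicate 1 of Raji with inactive enantiomer at 4 h, whose upper range was the lowest in Raji. RRP8 is not given without either array, so the difference and the Raji rise are not shown to hold without them.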

How the results depend on the processing

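All members called with BET inhibitor over inactive enantiomer were lower under each alternative run, but their number was not stable. With the arrays of the line alone the count of called members was 1 in LP-1 at 4 h (6 with all arrays), 3 in LP-1 at 8 h (23), 0 in Raji at 4 h (1) and 0 in Raji at 8 h (4), and against untreated cells 1 (14), 14 (30), 0 (2) and 0 (4). Leaving out 1 array gave 1 to 14 and 4 to 12 in LP-1 at 4 and 8 h, 0 in Raji at 4 h and 0 to 1 at 8 h, and against untreated cells 2 to 18, 11 to 24, 0, and 0 to 1. The untreated line comparison gave 6 (10), and the 4 h difference between lines 2 (0) without LP-1 inhibitor replicate 2. Against untreated cells quantile normalization gave 6 in LP-1 at 4 h and 4 in Raji at 4 h, and median centring 7 in LP-1 at 4 h. The median difference of untreated Raji over LP-1, -0.03, reversed to 0.19 after quantile normalization and 0.11 after centring. The cause was not tested, except that fits on 1 line or without an array rest on fewer arrays. Shares of all probe sets called under these alternatives are not given here, so a changed count is not read as particular to the members. With a replicate block 5, 17, 1 and 3 members passed over inactive enantiomer. Of the named members, UTP25 in LP-1 at 4 h and NOP16, UTP25 and WDR3 in LP-1 at 8 h kept their calls without any 1 array. Dim probe sets such as that of NPM1 limit what can be detected, and RMA values hide any change in total RNA.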
